A study of Mus musculus with 8 samples.

Results

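Polycomb repressive complex genes encode the subunits of PRC1 and PRC2, the 2 large protein complexes that keep genes silent through marks on histones. A list of 32 such genes was read from 8 one-colour Affymetrix expression arrays of mouse embryonic stem (ES) cells. Each gene was taken by symbol and represented by its probe set with the highest mean signal over the 8 arrays, and 31 of the 32 could be read, out of 18193 genes with a named probe set. Rybp could not be read, because both of its probe sets also carry the symbol of a pseudogene in the platform annotation. Oct4-Gip is the strain given for the cells, which were at passage 25 in all samples and were sampled on day 4 after lipofection with an esiRNA, meaning a mixture of siRNAs cut by an enzyme from one long double-stranded RNA. In 4 samples the esiRNA was directed at Ctr9, a subunit of the Paf1 complex that accompanies elongating RNA polymerase II, and in 4 it was directed at luciferase, which served as the control. Values are log2 probe set signals, and every difference below is Ctr9 esiRNA minus luciferase esiRNA on that scale. Whether replicates are independent cultures is not stated. The p-values then speak of the spread among these samples alone, and it may be technical.

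PRC2 methylates histone H3 at lysine 27 through Ezh1 or Ezh2, and it needs the subunits Eed and Suz12 to be active. PRC1 adds ubiquitin to histone H2A through Ring1 or Rnf2, each paired with a Pcgf protein. Canonical PRC1 contains a Cbx protein that binds the mark made by PRC2 and a Phc protein, whereas variant PRC1 contains Rybp or its relative Yaf2 in their place. In ES cells both complexes sit at CpG islands of developmental regulator genes and hold them at low expression.

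The arrays of a group were close to each other, correlating over probe sets at 0.997 to 0.998, where arrays of different groups gave 0.992 to 0.994. Luciferase replicates 1 and 2 stood apart from 3 and 4 along principal component 2, which held 8.93% of the variance. With either of these pairs left out, 7 Polycomb genes were called higher and 6 lower. The check of the targeted gene was weak: of 5 Ctr9 probe sets, 2 fell (the larger by 0.18), 1 dim one rose, and the brightest differed by -0.09 without passing. All 13 pluripotency markers read above the median signal, but 8 of them fell with Ctr9 esiRNA, among them Pou5f1 by 0.20, Nanog by 0.44, Klf4 by 0.91 and Esrrb by 1.10. In the same arrays 8 of 11 trophectoderm markers rose (Krt8 by 2.61, Cdx2 by 1.39), while Elf5, Tead4 and Tfap2c did not pass. Over all genes 15.8% were called higher and 15% lower. Counts over the whole lists are given at the end.

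The Polycomb genes changed in both directions. Of the 31 genes read, 7 were higher, 9 were lower and 15 did not pass the test (limma, Benjamini-Hochberg adjusted over 45037 probe sets, threshold 0.05). In all genes 15.8% were called higher and 15% lower, 30.8% in either direction, against 51.6% of the Polycomb genes. All 31 read above the median signal of the array's probe sets (5.93 to 13.33 on the log2 scale), and among the 11814 genes that did so 42.1% were called. The median difference over the 31 genes was 0.014, beside 0.00359 over all genes. The sizes were modest: the largest rise was 1.83-fold and the largest fall -30.6%, and 3 genes changed by at least 1.5-fold. Groups were fully apart in 17 of the 31 genes, and in 36.6% of all genes.

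**Figure D1:**
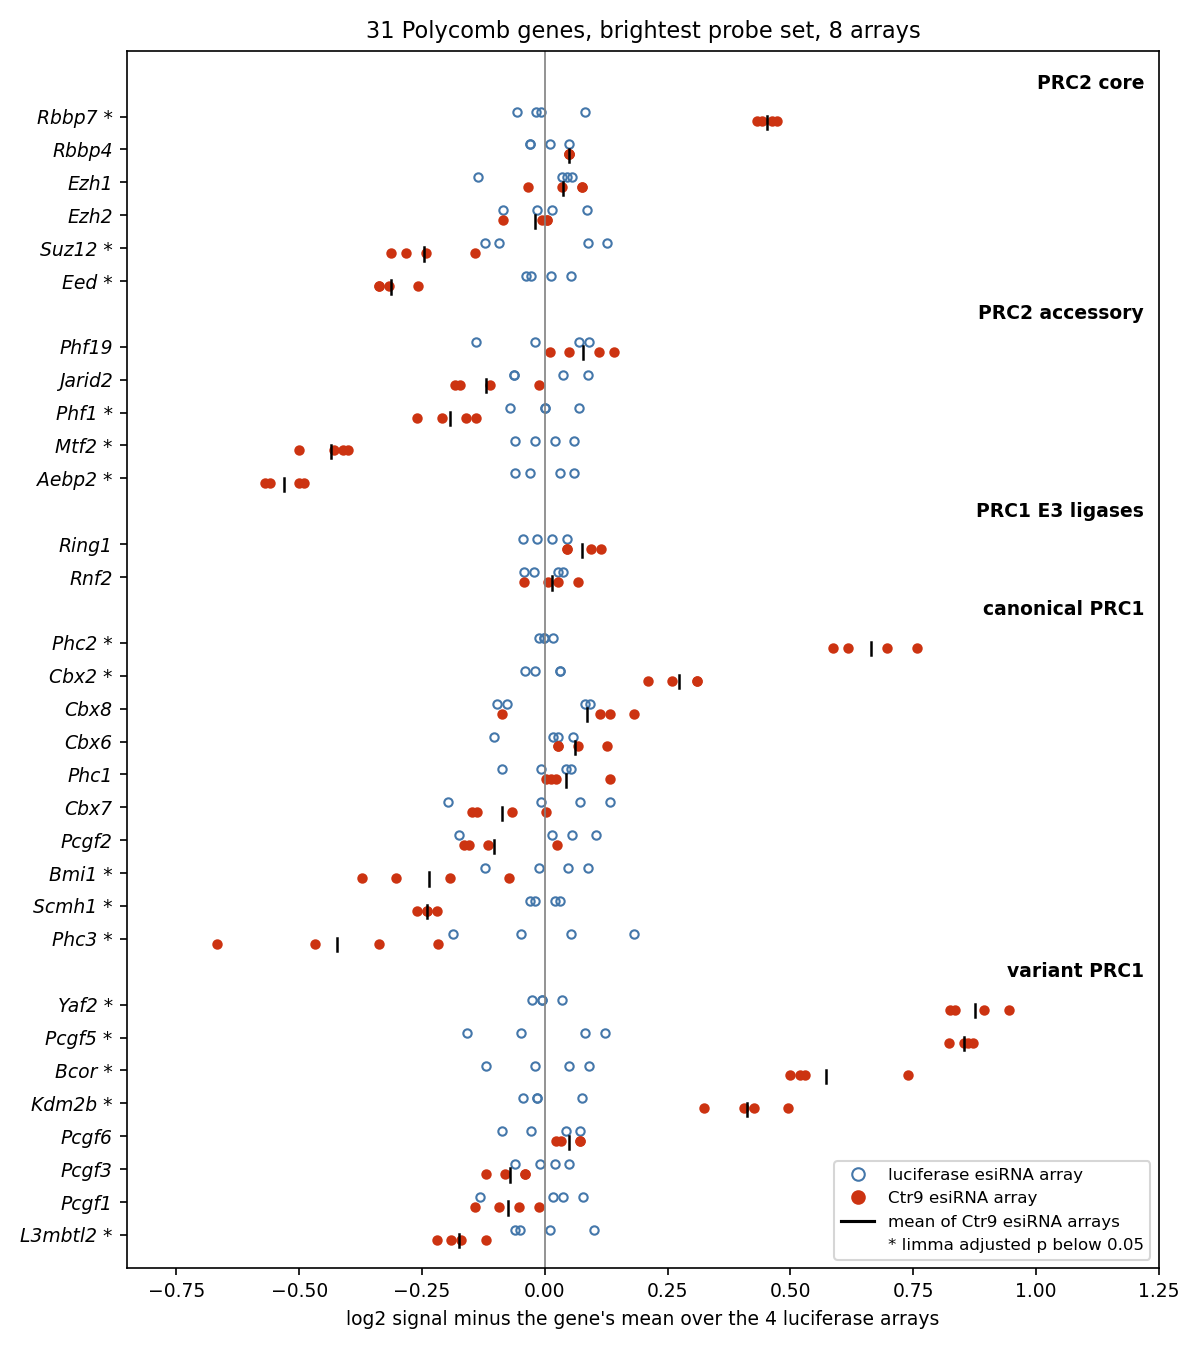
Log2 signal of the 31 Polycomb genes in each of the 8 arrays (x axis), set against the gene's mean over the 4 luciferase arrays, with genes grouped by complex (y axis). Open blue points are luciferase arrays, filled red points are Ctr9 esiRNA arrays, black ticks are the means of the Ctr9 esiRNA arrays and an asterisk marks an adjusted p below 0.05 (limma). The 4 red points of Yaf2, Pcgf5 and Phc2 lie far to the right of their blue points, those of Aebp2 and Mtf2 lie to the left, and those of Ezh2 and Rnf2 lie among them.

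Within the PRC2 core, neither enzyme gene passed the test while 2 of their essential partners were lower. The share called among its 6 genes, 50%, is near the 42.1% of all genes above the median signal. Ezh2, the main methyltransferase of cycling cells, read 11.22, 11.15, 11.32 and 11.25 in the luciferase arrays and 11.15, 11.23, 11.24 and 11.24 in the Ctr9 esiRNA arrays. These groups overlap, and the difference of -0.02 had a 95% interval from -0.13 to 0.10 (limma adjusted p = 0.864). Ezh1, its less active relative, differed by 0.04 (interval -0.09 to 0.17) on its brightest probe set. Eed, which binds the methylated histone and stimulates the enzyme, read 12.12, 12.21, 12.13 and 12.17 with luciferase esiRNA against 11.84, 11.82, 11.90 and 11.82 with Ctr9 esiRNA. Every Ctr9 esiRNA array lay below every control, a fall of 0.31 (SE 0.0447, -19.5%, limma adjusted p = 0.000572).

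Suz12, the scaffold that holds the PRC2 core together, read 12.09, 12.13, 11.88 and 11.91 in the control arrays and 11.86, 11.72, 11.69 and 11.76 in the Ctr9 esiRNA arrays. Its groups did not overlap, but by a narrow margin, because luciferase replicates 3 and 4 read lower than 1 and 2. The fall was 0.24 (SE 0.069, -15.6%, limma adjusted p = 0.0258). That call was lost when luciferase replicate 1 was omitted (limma adjusted p = 0.0703) or replicate 2 (0.0669), and likewise for Ctr9 esiRNA replicate 2, 3 or 4 (0.0545 to 0.0696). It was also lost with luciferase arrays 1 and 2 both omitted (0.193) and for the mean of all Suz12 probe sets (-0.11, limma adjusted p = 0.434). The next 2 Suz12 probe sets, nearly as bright, fell by 0.25 and 0.25 (limma adjusted p = 0.0107 and 0.0123).

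Rbbp4 and Rbbp7 encode closely related histone-binding proteins that PRC2 shares with several deacetylase and chromatin assembly complexes. Rbbp7 went from 12.72, 12.86, 12.76 and 12.77 to 13.25, 13.21, 13.22 and 13.24. It is the only core gene that rose, by 0.45 (SE 0.0456, 1.37-fold, limma adjusted p = 6.19e-05). Its other probe set rose by 0.49. Rbbp4 differed by 0.05 (interval -0.06 to 0.16), with 3 Ctr9 esiRNA values because replicate 1 is empty for this probe set. Those 3 values were unusually close (SD 0.00134, against 0.0369 in the controls), for a reason that was not tested.

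The stretches just before the start sites of Eed, Suz12 and Rbbp7 are shown because these core genes changed in different directions and each has a start that is the outermost of its gene in the RefSeq tables (GRCm38.p6). Each line holds the 150 bases before the start, 5′ to 3′ on the gene's strand, and capitals mark GC boxes (GGGCGG or its reverse complement) and CCAAT boxes (CCAAT or its reverse complement).
Eed (chr7:89980977-89981126, minus strand): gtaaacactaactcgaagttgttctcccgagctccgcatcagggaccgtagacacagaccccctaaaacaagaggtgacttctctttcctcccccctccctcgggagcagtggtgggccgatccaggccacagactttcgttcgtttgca
Suz12 (chr11:79992956-79993105, plus strand): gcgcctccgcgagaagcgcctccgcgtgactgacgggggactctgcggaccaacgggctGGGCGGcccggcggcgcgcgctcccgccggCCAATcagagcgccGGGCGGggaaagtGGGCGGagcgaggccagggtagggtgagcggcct
Rbbp7 (chrX:162760222-162760371, plus strand): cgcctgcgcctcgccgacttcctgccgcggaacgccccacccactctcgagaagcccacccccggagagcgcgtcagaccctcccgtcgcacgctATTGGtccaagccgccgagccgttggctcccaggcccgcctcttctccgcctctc
The Suz12 stretch holds 3 GC boxes and 1 CCAAT box and 23 CpG dinucleotides, that of Rbbp7 holds 1 CCAAT box in reverse and 19 CpG, and that of Eed holds neither box and 8 CpG.

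Accessory subunits steer PRC2 to chromatin, and here 3 of 5 fell and none rose. The list is short, and 42.1% of all genes above the median signal were called in either direction. Aebp2, which together with Jarid2 defines the PRC2.2 form, had the largest fall of all 31 genes. It read 11.77, 11.80, 11.89 and 11.86 with luciferase esiRNA and 11.26, 11.34, 11.27 and 11.33 with Ctr9 esiRNA, a wide gap for the spread of the arrays. The fall was 0.53 (SE 0.0471, -30.6%, limma adjusted p = 2.6e-05). Jarid2 itself, a catalytically inactive relative of the JmjC demethylases, differed by -0.12 (interval -0.25 to 0.01, limma adjusted p = 0.176), and its 3 probe sets gave -0.14 to -0.12, of which none passed. Jarid2 did pass as lower with a trended robust prior (limma adjusted p = 0.0318) and when its probe sets were averaged (-0.13, limma adjusted p = 0.0177).

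Mtf2, a Polycomb-like protein that binds CpG-rich DNA in the PRC2.1 form, read 13.11, 13.15, 13.07 and 13.03 in the controls and 12.59, 12.66, 12.69 and 12.68 in the Ctr9 esiRNA arrays. The groups lay well apart, with a fall of 0.43 (SE 0.0474, -25.9%, limma adjusted p = 0.000104). Of the other Polycomb-like genes, Phf1 fell by 0.19 (SE 0.0494, limma adjusted p = 0.0161) and Phf19 differed by 0.08 (interval -0.06 to 0.22). The Phf1 call was lost with luciferase replicates 3 and 4 omitted (limma adjusted p = 0.108).

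Neither gene of the catalytic pair of PRC1 passed the test. Rnf2, also known as Ring1b, read 11.63, 11.64, 11.58 and 11.56 against 11.63, 11.61, 11.56 and 11.67, a difference of 0.01 (interval -0.09 to 0.12). Ring1 differed by 0.07 (interval -0.02 to 0.17, limma adjusted p = 0.272), and its groups met at 7.20 without overlapping.

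Variant PRC1 held the largest rises, with 4 of its 8 genes higher and 1 lower. That is 62.5% called in a short list, beside 42.1% of all genes above the median signal. Yaf2, the relative of Rybp that stimulates the ubiquitin ligase, went from 8.54, 8.50, 8.48 and 8.50 to 9.45, 9.33, 9.34 and 9.40. All 4 Ctr9 esiRNA arrays were above all controls by a wide margin, a rise of 0.87 (SE 0.0459, 1.83-fold, limma adjusted p = 9.35e-07). Pcgf5, the RING finger partner that defines the PRC1.5 form, went from 9.09, 9.05, 8.81 and 8.92 to 9.79, 9.82, 9.84 and 9.83. The rise was 0.85 (SE 0.0641, 1.81-fold, limma adjusted p = 8.53e-06), and the Ctr9 esiRNA arrays were tighter than the controls. Its upstream stretch, shown as that of the gene with the second largest rise, holds 2 GC boxes and 1 CCAAT box in capitals as above.
Pcgf5 (chr19:36348179-36348328, plus strand): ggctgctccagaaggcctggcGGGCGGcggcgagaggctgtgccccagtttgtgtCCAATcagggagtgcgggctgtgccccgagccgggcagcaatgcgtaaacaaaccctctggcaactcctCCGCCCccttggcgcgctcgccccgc

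Kdm2b and Bcor, which belong with Pcgf1 to the PRC1.1 form, both rose, whereas Pcgf1 did not pass. Kdm2b, whose zinc finger binds unmethylated CpG islands, went from 10.58, 10.67, 10.58 and 10.55 to 11.09, 11.00, 10.92 and 11.02, a rise of 0.41 (SE 0.0519, limma adjusted p = 0.000246). Bcor, a corepressor that joins Pcgf1, went from 8.36, 8.32, 8.15 and 8.25 to 8.77, 9.01, 8.79 and 8.80. Its 4 values were all above the controls, with replicate 2 the highest, and the rise was 0.57 (SE 0.068, 1.48-fold, limma adjusted p = 0.000181). Pcgf1 differed by -0.08 (interval -0.20 to 0.05).

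The remaining variant PRC1 genes had smaller differences. Pcgf3, the Pcgf relative closest to Pcgf5, differed by -0.07 (interval -0.17 to 0.03). Pcgf6, the Pcgf protein of the PRC1.6 form, differed by 0.05 (interval -0.06 to 0.16). L3mbtl2, a methyl-lysine binding protein of the same form, read 10.44, 10.43, 10.50 and 10.59 against 10.27, 10.32, 10.37 and 10.30 and fell by 0.18 (SE 0.0509, -11.6%, limma adjusted p = 0.0271). Its groups lay close together, and the call was lost on omitting luciferase replicate 3 (limma adjusted p = 0.0606) or 4 (0.0648) or Ctr9 esiRNA replicate 1, 2 or 4 (0.0561 to 0.0676), and with luciferase replicates 3 and 4 both omitted (0.167). The replicate block gave 0.0598.

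Canonical PRC1 changed in both directions, with 2 of 10 genes higher and 3 lower. The share called, 50%, is near the 42.1% of all genes above the median signal. The polyhomeotic genes, whose proteins polymerise through a SAM domain and cluster PRC1, split in 3 ways. Phc2 went from 8.73, 8.72, 8.75 and 8.73 to 9.49, 9.35, 9.32 and 9.43, a rise of 0.67 (SE 0.0497, 1.59-fold, limma adjusted p = 7.94e-06). Phc1 differed by 0.04 (interval -0.08 to 0.16). Phc3 read 7.19, 7.06, 6.96 and 6.82 against 6.34, 6.79, 6.54 and 6.67, and fell by 0.42 (SE 0.104, -25.3%, limma adjusted p = 0.0138). Its arrays were widely spread in both groups, and the call was lost with luciferase replicates 1 and 2 omitted (limma adjusted p = 0.128).

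Among the Cbx genes, whose chromodomains read the PRC2 mark, Cbx2 alone passed. It went from 8.76, 8.81, 8.81 and 8.74 to 9.04, 9.09, 8.99 and 9.09, a rise of 0.27 (SE 0.0465, 1.21-fold, limma adjusted p = 0.00164). Cbx7, the main Cbx protein of PRC1 in undifferentiated ES cells, read 10.10, 9.91, 10.24 and 10.18 against 9.97, 10.11, 10.04 and 9.96. Its groups overlap, with a difference of -0.08 (interval -0.25 to 0.08). Cbx6 (0.06) and Cbx8 (0.08) did not pass either, with intervals of -0.05 to 0.18 and -0.08 to 0.24.

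Of the Pcgf partners of canonical PRC1, Bmi1 read 8.35, 8.45, 8.24 and 8.41 with luciferase esiRNA and 7.99, 8.06, 8.17 and 8.29 with Ctr9 esiRNA. It was called lower, by 0.24 (SE 0.0742, limma adjusted p = 0.041), with groups that overlap. No other call was lost under as many alternatives: it was lost on omitting luciferase replicate 1, 2 or 4 or Ctr9 esiRNA replicate 1, 2 or 3 (limma adjusted p = 0.0625 to 0.106), with arrays centred on their medians (0.0538), under cyclic loess (0.0544), with array weights (0.0630) and with the replicate block (0.0563). Omitting luciferase replicates 1 and 2 gave 0.204, and 3 and 4 gave 0.0743. The dimmer Bmi1 probe set fell by 0.48 (limma adjusted p = 0.00109), with no overlap. Pcgf2, also known as Mel18, differed by -0.10 (interval -0.26 to 0.06). Scmh1, a SAM domain protein that associates with PRC1, went from 8.09, 8.08, 8.13 and 8.14 to 7.87, 7.87, 7.89 and 7.85. Its arrays were the tightest of the genes that fell, at 0.24 lower (SE 0.0417, -15.5%, limma adjusted p = 0.00173).

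The array carries 81 probe sets for the 31 genes, and 25 genes have several. Of the 81, 14 were higher and 21 lower, beside 24.9% of all probe sets called in either direction. Opposite calls within a gene did not occur. For 14 genes that were called and had several probe sets, the second brightest passed the same way in 10. All 5 Aebp2 probe sets fell (by 0.22 to 0.84), the 4 bright Mtf2 probe sets fell by 0.43 to 0.58, both Yaf2 probe sets rose by 0.87, and all 3 Bcor probe sets rose (0.36 to 0.57). The 3 bright Suz12 probe sets fell, whereas 3 dimmer ones, with control means of 7.83 or below, differed by 0.00 to 0.10. The calls of Eed, Cbx2, Phc3 and Scmh1 rest on the brightest probe set, as dimmer ones of these genes had the same sign and did not pass.

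Probe sets of 2 genes disagreed with the brightest one. For Ezh1 the second probe set read 7.55, 7.78, 7.52 and 7.54 against 7.33, 7.46, 7.26 and 7.43 and fell by 0.22 (limma adjusted p = 0.0426), where the brightest did not pass. For Rbbp4 the dimmest of 4 probe sets fell by 0.24 (limma adjusted p = 0.0215), while the other 3 differed by 0.05 to 0.10.

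**Figure D2:**
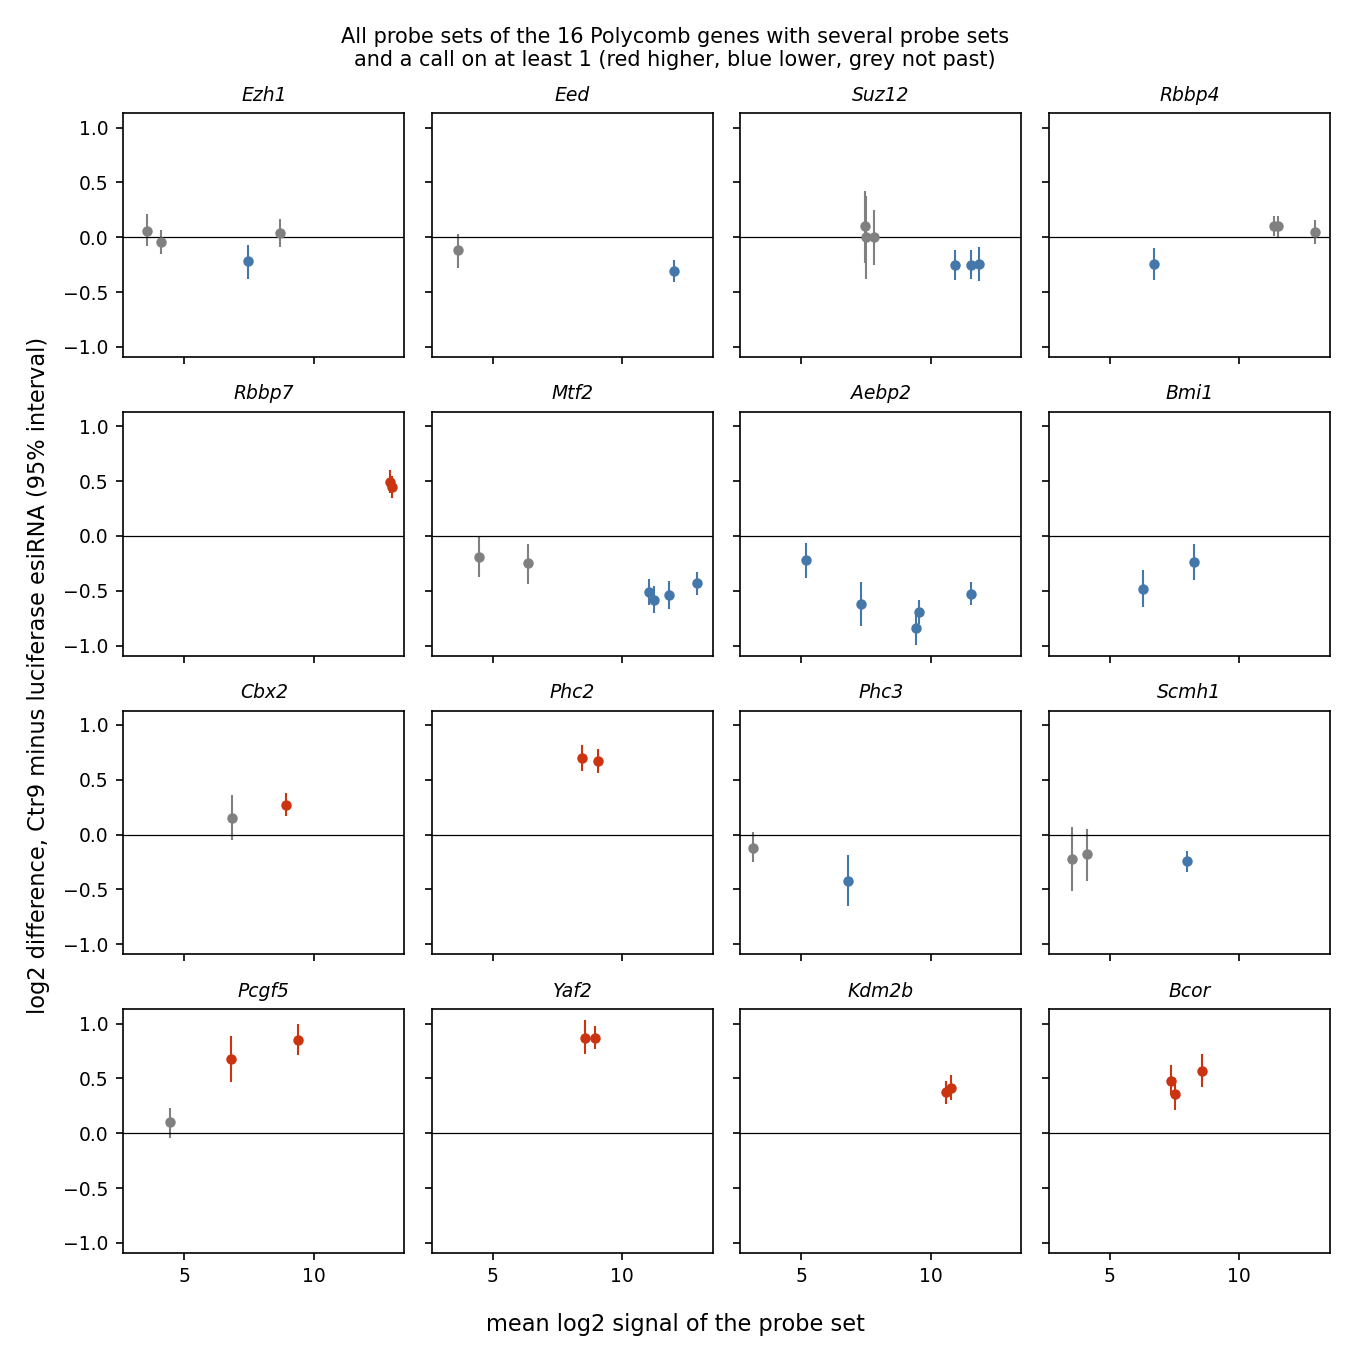
Log2 difference of every probe set (y axis, with its 95% interval) against its mean log2 signal (x axis) for the 16 Polycomb genes that have several probe sets and a call on at least 1 of them. Red points are higher, blue points lower and grey points not past the limma threshold. Probe sets of Aebp2, Bmi1, Phc2, Yaf2, Kdm2b, Bcor and Rbbp7 are all called the same way, whereas dim probe sets of Suz12, Pcgf5 and Scmh1 lie closer to 0 or have wider intervals.

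Several Polycomb subunits are alternatives for the same place in a complex, whereas Jarid2 and Aebp2 are partners in the same form. In all, 17 pairs of such genes were set against each other within each array. In this measure a shift shared by all genes of an array cancels. The change of the first gene exceeded or fell short of that of the second in 11 of 17 pairs (exact two-sided permutation p = 0.0286, the smallest that 4 against 4 arrays or 4 against 3 allows, adjusted p = 0.0442 over the 17 pairs). The same share over other pairs of genes was not computed, so whether the count is particular to Polycomb genes was not tested. Groups were fully apart in 36.6% of all single genes. Several pairs also share a gene, so the 17 are not independent. The widest gap was between Phc2 and Phc3, at 1.09, followed by Pcgf3 against Pcgf5 at -0.92 and Phc1 against Phc2 at -0.63. Among the Polycomb-like genes Mtf2 fell relative to Phf19 (-0.51), which itself did not pass, and fell more than Phf1 (-0.24). Jarid2 and Aebp2, partners in 1 form of PRC2, differed in their changes by 0.41, and Rbbp4 and Rbbp7 by -0.39 (n = 3 Ctr9 esiRNA arrays). Cbx2 rose relative to Cbx7 (0.36) and to Cbx8 (0.19). With single arrays left out, the same exact permutation test passed 10 pairs without luciferase replicate 3, all among the 11, and 10 without luciferase replicate 4. The latter were 9 of the 11 and Pcgf1 against Pcgf6. None passed without luciferase replicate 1 or 2 or any 1 of the 4 Ctr9 esiRNA arrays, where 6 to 9 pairs had an unadjusted p of 0.0286 and the smallest adjusted p was 0.0540 to 0.0810. As 0.0286 is the smallest p possible, whether any pair passes depends on how many pairs reach it. These losses therefore cannot show that a single pair depends on 1 array.

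The 6 pairs that did not pass were Ezh2 against Ezh1, Ring1 against Rnf2, Bmi1 against Pcgf2, Pcgf1 against Pcgf6, and Cbx6 and Cbx8 against Cbx7. Ezh2 changed by -0.06 relative to Ezh1 (exact permutation adjusted p = 0.457), with a spread of 0.124 among the controls. Bmi1 changed by -0.14 relative to Pcgf2 (exact permutation adjusted p = 0.364), less than the spread between replicates (SD 0.199 and 0.197).

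**Figure D3:**
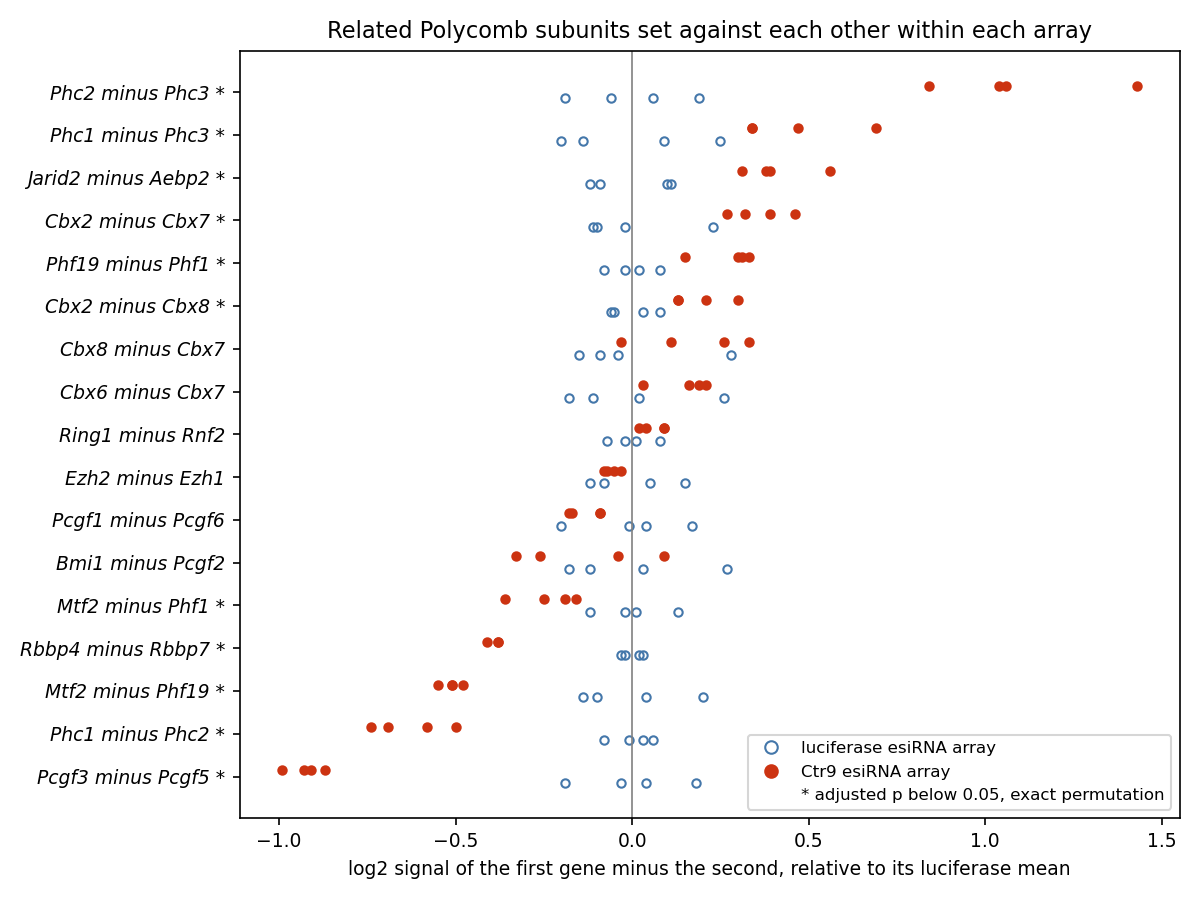
Log2 signal of the first gene minus the second within each array (x axis), set to 0 at the mean of the luciferase arrays, for 17 pairs of related Polycomb genes (y axis). Open blue points are luciferase arrays, filled red points are Ctr9 esiRNA arrays and an asterisk marks an adjusted p below 0.05 (exact permutation). Red and blue points are fully apart in the 11 pairs with an asterisk, from Pcgf3 against Pcgf5 at the left to Phc2 against Phc3 at the right.

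RefSeq start-site windows were found for 28 of the 32 genes (41 windows). The 250 bases before the start held a median of 20 CpG dinucleotides in these windows against 6 over all 32851 windows. A GC box was present in 65.9% of the Polycomb windows against 32.7% of all, a CCAAT box in 34.1% against 33.8%, and a TATA box (TATAAA) in 2.44% against 12.4%. An E-box (CACGTG) was present in 17.1% against 6.02%. An E2F word (TTTCCCGC, TTTGGCGC or TTTCGCGC) was found for Suz12 and Phf19, in 4.88% of the windows against 1.53% of all. An ETS word (CCGGAAG) was found for Phc2 (2.44% of the windows against 6.91% of all) and the NRF1 palindrome for Phc3 (2.44% against 0.782%). The YY1 word, present in 0.207% of all windows, was found for none. All words were searched on both strands, words of different kinds may overlap in a window, and a match describes the letters only.

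Other proteins that join Polycomb complexes were read from a list of such partners. Of 29 genes read, 8 were higher, 8 lower and 13 did not pass, at a median of -0.0241. The share called was 55.2%, beside 30.8% of all genes and 42.1% of those above the median signal. Scml2, a PRC1-associated relative of Scmh1, had the largest change, from 8.17, 8.20, 8.32 and 8.20 to 7.26, 7.27 and 7.26 (Ctr9 esiRNA replicate 2 is empty). It fell by 0.96 (SE 0.054, limma adjusted p = 3.32e-06). Its 3 Ctr9 esiRNA values are unusually close (SD 0.00399, against 0.0683 in the controls), as are those of Rbbp4, which also has an empty value. The same holds for the 3 luciferase values of Sox7 (SD 0.000169) and of Otp (SD 0.00267), where luciferase replicate 2 is empty. The spread of such groups may thus not be that of the samples. The reason was not tested, and the size of the Scml2 fall calls for caution. Sfmbt2, a protein with malignant brain tumour repeats that binds the Polycomb protein Yy1, went from 9.20, 9.29, 9.25 and 9.28 to 9.98, 9.94, 9.94 and 9.95. That rise was 0.70 (SE 0.0427, limma adjusted p = 2.42e-06). Tfdp2, a dimerisation partner of E2F factors, fell by 0.37, and Phf21a, better known as a subunit of the Lsd1 corepressor complex than as a Polycomb protein, rose by 0.67. Epop, a PRC2.1 subunit singled out after its values were seen, fell by 0.54 (SE 0.0766, limma adjusted p = 0.00052). The rises in this list dropped from 8 to 5 without luciferase replicate 2 or 3 and to 4 without Ctr9 esiRNA replicate 1.

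Of 13 genes read for enzymes that work against Polycomb, 2 were higher, 4 lower and 7 did not pass, at a median of -0.105. The share called, 46.2%, is near the 42.1% of all genes above the median signal. Bap1, which removes ubiquitin from histone H2A, rose by 0.30 (SE 0.0451, limma adjusted p = 0.000713), while its partner Asxl2 fell by 0.27. The deubiquitinase genes Usp21 and Mysm1 fell by 0.21 and 0.17. The demethylase genes for the PRC2 mark, Kdm6a and Kdm6b, singled out for that role, differed by -0.13 and 0.06 and did not pass. Without luciferase replicate 2 the counts of this list were 1 higher and 1 lower, without luciferase replicate 3 or 4 they were 1 and 2, without Ctr9 esiRNA replicate 2 or 3 they were 2 and 2, and without Ctr9 esiRNA replicate 1 or 4 the higher count was 1.

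Developmental regulators of the kind that Polycomb holds at low expression in ES cells were read from a list of 126 genes, drawn up from general knowledge and not from binding data in these cells. Of 117 genes read, 29 were higher, 7 lower and 81 did not pass. The share called, 30.8%, equals that of all genes, but the list is dimmer than all genes. Of its 42 genes above the median signal, 18 were higher and 4 lower. Among all genes above that signal, 42.1% were called in either direction. By direction, 24.8% of the list were higher, against 15.8% of all genes, and 5.98% lower, against 15%. The list's median difference was 0.0445, and 12 of its genes also stand in the marker lists counted below. Of the 117 genes, 75 read below the median signal, where no background level is known, and 11 of the 29 rises are among these. By the second brightest probe set, which 52 of the genes have, 6 were higher and 3 lower.

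The rises of at least 2-fold numbered 7, and the share of all genes with such a rise was not computed. Among them Foxa2, the largest at 1.98, and Gata3 (1.18) read below the median signal. The cell cycle inhibitor gene Cdkn1c went from 8.74, 8.67, 8.87 and 8.90 to 10.60, 10.55, 10.47 and 10.59, a rise of 1.76 (SE 0.0616). The neural factor gene Sox1 (1.33), the trophectoderm factor gene Cdx2 (1.39) and the neural tube factor gene Olig3 (1.21) followed by adjusted p. By family, 5 of 20 Hox genes were higher (0.24 to 0.60), as were 2 of 4 Gata, 2 of 5 Nkx and 2 of 6 Wnt genes, and none of these families had a member that fell. Among these rises, Hoxb1, Hoxa2, Hoxc8, Gata3, Nkx2-2, Wnt5a and Wnt3 read below the median signal. Over all genes 15.8% were higher. Of 4 Sox genes 1 rose and 1 fell, of 6 Pax genes Pax6 fell and the other 5 did not pass, and none of 6 Lhx or 4 Tbx genes passed. All 4 Irx genes, singled out after their values were seen, were higher, at 0.29 (Irx1 and Irx2) to 0.85 (Irx3). Irx1 read below the median signal.

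**Figure D4:**
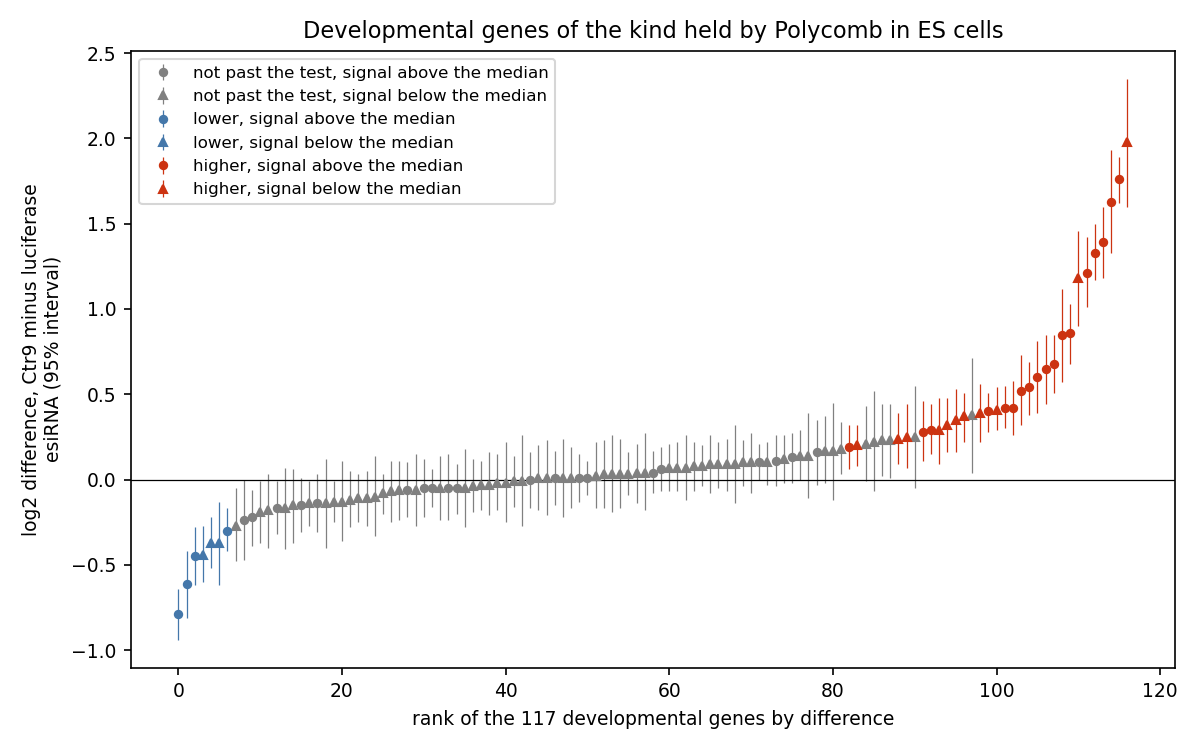
Log2 difference (y axis, with its 95% interval) of 117 developmental regulator genes ordered by difference (x axis). Red marks are higher, blue lower and grey not past the limma threshold, and triangles are genes whose signal lies below the median of all probe sets. The curve is nearly flat over most of its length and turns up at the right, where 7 genes exceed a rise of 2-fold.

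Some markers of the cell state moved in the same arrays. The share called was 69.2% of the pluripotency, 72.7% of the trophectoderm and 85.7% of the neuroectoderm markers. Among all genes it was 30.8% (15.8% higher and 15% lower), and 42.1% among those above the median signal. The primitive endoderm (33.3%) and fibroblast (35.3%) lists were called about as often as all genes. Of 13 pluripotency markers 8 fell and 1 rose (Dppa3 by 0.21). The summed signal of the 13 on the linear scale ran from 102845 to 104692 in the luciferase arrays and from 84212 to 86310 in the Ctr9 esiRNA arrays. Of 11 trophectoderm markers 8 rose and none fell, with sums of 2220 to 2628 and 5424 to 5814. These lists share some genes with the developmental regulators above. Of 7 neuroectoderm markers 5 rose and 1 fell (1090 to 1160 and 1776 to 2098), and of 9 primitive endoderm markers 2 rose and 1 fell (1188 to 1320 and 917 to 1068). Such linear sums weigh the brightest gene of a list most. In the endoderm list that is Lama1, its only fall (9.67 to 8.60, luciferase first), while Foxa2 rose by 1.98 and Dab2 by 1.26 and 6 did not pass. In the neuroectoderm list it is Sox11, which rose (7.90 to 9.83). Of 17 fibroblast markers 6 rose and none fell (843 to 892 and 1055 to 1125), namely Bgn (0.75), Col5a2 (0.74), Dcn (0.57), Mmp2 (0.42), Twist1 (0.41) and Col1a2 (0.24). Other fibroblast genes did not pass, such as Col1a1 (5.34 and 5.39, luciferase first), Col3a1 (4.12 and 4.11) and Lum (4.20 and 4.21). No marker can read 0 on this scale. Fewer cells of a type and less RNA per cell cannot be told apart in such samples, and the part of these shifts in the Polycomb values was not tested.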

How the data were processed

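Total RNA was labelled with biotin in 1 cycle and hybridised to Affymetrix arrays, per the labels' protocols. The authors deposited log2 signals of probe sets. The submitters' processing notes name GCOS 1.4 and RMA, with options not given in the sources used here. Since RMA equalises arrays, a shift common to every gene cannot be seen, and low signals are drawn together.

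The log2 values were used as deposited, with 64 control probe sets left out (45037 kept, 456 empty values skipped in the fit). Symbols came from the platform annotation, updated through the GRCm38.p6 gene table. The comparison of groups used lmFit and eBayes of limma 3.58.1 under R 4.3.3, adjusted over all probe sets, with intervals at 95% and SE as limma's moderated standard error. The fit was tested on simulated data with 200 changed probe sets. Pairs of genes were compared by exact permutation over arrays. Same-numbered samples did not deviate together (deviation correlations given in the closing section), so the main fit has no replicate block. Named are all Polycomb genes, Ctr9 and up to 4 genes per related list with the smallest adjusted p. Epop, Kdm6a, Kdm6b, Pax6, the Irx genes and single cell type markers are named outside this rule, with their values known. So are Foxa2 and the Hox, Gata, Nkx and Wnt genes named for their low signal, and Sox7 and Otp, named for an empty value. The genes and lists were chosen with earlier results of these data known. Alternatives were other filters, scalings, priors, array weights, a replicate block, arrays left out, a stricter threshold and other probe sets of a gene. Depth does not apply to arrays, and their number limits the precision. Figures were drawn with matplotlib 3.10.9.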

Additional observations from a re-analysis of the deposited data

Results flagged for a closer look

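In 4 of 61 groups of 4 arrays, a Polycomb gene had 1 array far from the other 3 by Dixon's test, where chance gives about 1 in 20. Ezh1 read 8.56 in luciferase replicate 4, with the next value at 8.73. Ezh2 read 11.15 in Ctr9 esiRNA replicate 1, with the next at 11.23. Phc1 read 13.44 in Ctr9 esiRNA replicate 2, with the next at 13.33. Bcor read 9.01 in Ctr9 esiRNA replicate 2, with the next at 8.80, and its rise passed without that array too.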

How the results depend on the processing

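Of 675 values of single Polycomb genes over 22 alternatives, 625 kept direction and call, 37 lost the call, 2 gained one with the same sign (both Jarid2) and 11 changed sign, of which 1 passed (Ezh1 by its second brightest probe set). The calls of 8 of the 16 called genes (Rbbp7, Mtf2, Aebp2, Phc2, Pcgf5, Yaf2, Kdm2b and Bcor) held in all of them. The cause of the changes was not tested. The sign changes all concern genes not called in the main comparison. Ezh2 gave 0.01 without luciferase replicate 3 or Ctr9 esiRNA replicate 1 (range over single arrays left out -0.04 to 0.01). With luciferase arrays 1 and 2 left out, Phc1 and Pcgf6 gave -0.01 each. With 3 and 4 left out, Ezh1 gave -0.01, Ezh2 0.03, Rnf2 -0.02 and Cbx7 0.02. With all probe sets of a gene averaged, Ezh1 and Rnf2 gave -0.04 each and Ezh2 minus Ezh1 0.02, and with the second brightest probe set Ezh1 gave -0.22 (limma adjusted p = 0.0426).

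Polycomb genes called lower numbered 4 at a threshold of 0.01 and 5 with the second brightest probe set. That setting holds only genes with several probe sets (25 Polycomb genes, without Phf1 and L3mbtl2, 24 partners, 11 opposing enzymes and 52 regulators), and Ezh1 is among its 5. Partners called higher numbered 5 with luciferase arrays 3 and 4 left out, 4 at 0.01, 5 with the mean of probe sets, 4 with the second brightest and 4 to 7 with single arrays left out. Opposing enzymes called higher and lower numbered 1 and 2 with luciferase arrays 1 and 2 left out, 1 and 0 with 3 and 4 left out, 1 and 0 at 0.01, and 1 and 1 with the second brightest probe set. The lower count was 2 with the mean of probe sets, and single arrays left out gave 1 to 2 higher and 1 to 5 lower. Developmental regulators called higher numbered 18 above the median signal, where fewer genes were tested, and 6 with the second brightest probe set, beside 3 lower.

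Same-numbered arrays of both groups did not deviate together to any extent (correlations 0.0606, -0.0773, 0.0623 and -0.0669). The same-numbered Ctr9 esiRNA array was the best match for luciferase replicates 1 and 3, but not for 2 and 4. Such values show no clear pairing by number and cannot exclude that same-numbered samples were handled together. With the replicate block, 7 Polycomb genes were called higher and 7 lower, 5 partners higher, and opposing enzymes 1 higher and 2 lower. Pairs past the exact permutation test numbered 0 to 10 with single arrays left out, and no difference changed sign there. With probe sets averaged, Mtf2 against Phf1 and Cbx2 against Cbx8 no longer passed, while Ring1 against Rnf2 and Bmi1 against Pcgf2 did. With 4 arrays a group, small differences such as those of Ezh2 and Rnf2 are bounded only by their intervals.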
